A study of Mus musculus with 28 samples.

Results

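Livers of wild-type (WT) mice taken 24 h or 48 h after methyl methanesulfonate (MMS) were compared with livers taken 6 h or 12 h after it. The arrays were chosen by genotype, treatment and time, not by their values, and untreated arrays were kept out because the hybridization controls of the WT untreated arrays lay above those of all treated arrays. They are 9 of the 28 arrays of the series, with 4 late arrays (2 at 24 h and 2 at 48 h) and 5 early ones (2 at 6 h and 3 at 12 h). All 9 had received MMS, and no untreated array entered the tests given here, apart from an alternative with all 28 arrays in the closing section. The same contrast was also made in livers of mice null for Aag, with 7 late arrays (4 at 24 h and 3 at 48 h) and 5 early ones (3 at 6 h and 2 at 12 h). Each sample was total liver RNA on an Affymetrix mouse array, read as 1 log2 signal per probe set. The labels name no strain, sex, age, dose, route or hour of the day, and do not say whether replicates are separate animals. P-values here therefore measure only the spread between these samples. For gene differences it is the spread within a genotype and time, pooled over the 21 MMS-treated arrays, 12 of them Aag null. Differences between 6 h and 12 h, or between 24 h and 48 h, do not enter it. In whole liver, fewer cells of a type and less RNA per cell cannot be told apart.

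MMS methylates DNA, chiefly on purines, and also modifies RNA and protein. Aag is the glycosylase that starts base excision repair of several alkylated bases. The liver is the main source of plasma proteins, which are folded in the endoplasmic reticulum (ER) before secretion. Acute phase proteins are the plasma proteins whose synthesis changes in injury or inflammation, and the unfolded protein response raises ER chaperones when folding is overloaded.

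All 9 hepatocyte markers on the array lay above the array median. The hybridization controls, foreign transcripts added to each sample, averaged 7.19 to 8.49 on the late arrays and 6.42 to 9.22 on the early arrays (two-sided exact permutation test over 4 and 5 arrays, p = 0.492, where 0.0159 is the smallest p possible). RNA integrity, read as the 3′ minus 5′ signal of Gapdh, gave p = 0.373 in the same exact permutation test. Replicates of a WT time correlated at 0.958 to 0.994, except those at 6 h, at 0.828. Both 6 h arrays stood apart from the other WT arrays, with median correlations to the treated arrays of 0.925 (replicate 1) and 0.9355 (replicate 2). Those of the other WT treated arrays were 0.965 to 0.981. Replicate 1 correlated at 0.983 with replicate 1 of Aag at 6 h, and these 2 arrays had the lowest hybridization controls of the treated set, 6.42 and 6.59. Replicate 2 had the highest, 9.22, and the lowest 3′ minus 5′ signal of Gapdh, -0.37.

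Of 5318 genes tested, 73 differed between late and early WT liver, 50 of them higher and 23 lower in the late arrays. These are 1.37% of the genes tested, 0.94% higher and 0.432% lower. A gene is called where the adjusted p of limma, a linear model with pooled variance, was under 0.05, and 579 genes had an unadjusted p under 0.05. The median log2 difference of all genes was -0.02, and 12 of the called genes differed by more than 2-fold. In 64 of the 73 the late and early arrays did not overlap, as in 178 of all genes tested. Among genes that fell were ER chaperones and acute phase plasma proteins, and among those that rose were enzymes of bile acid, drug, glutathione and fatty acid metabolism. Of the 73, 52 belong to none of the 30 gene lists read here, so these groups do not stand for all called genes.

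The number called moved with the handling of single arrays. It was 327 without WT 6 h replicate 1, 82 without WT 6 h replicate 2, and 1209 without replicate 1 of both genotypes at 6 h. The count was 46 without WT 24 h replicate 1 and 41 without WT 48 h replicate 2. It was 41 with the values as deposited, 31 after median centring and 5 (2 higher, 3 lower) with array weights. The split was 8 higher and 12 lower with the 9 WT arrays alone, and 159 higher and 180 lower with the hybridization control mean as a covariate. Of the 73, 24 were called in fewer than 15 of 29 alternatives.

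**Figure D1:**
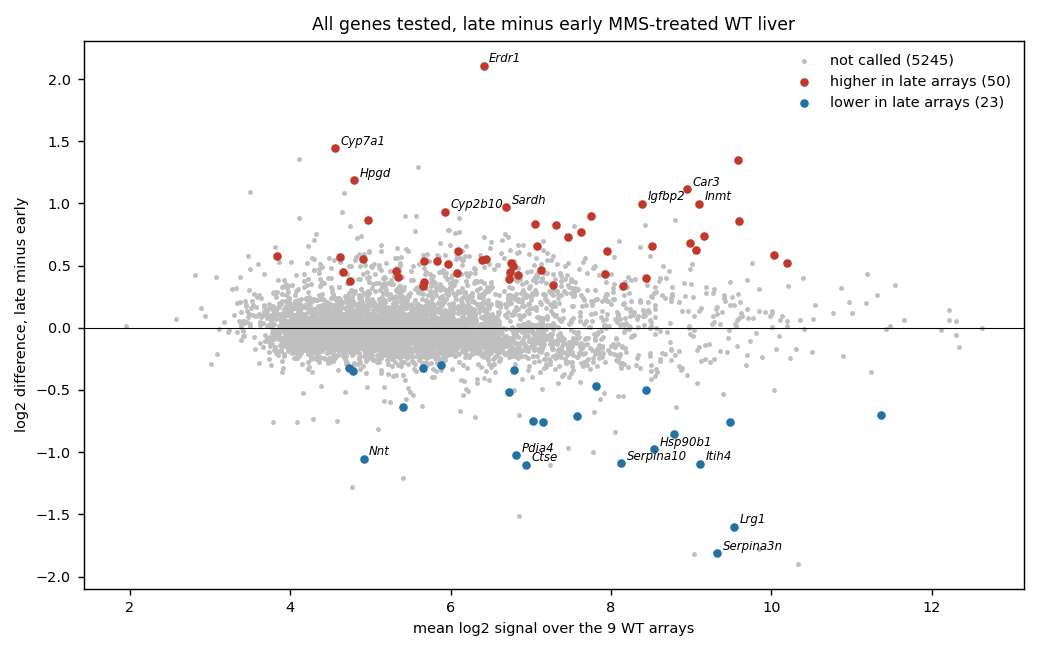
Log2 difference, late minus early WT arrays (y axis), against the mean log2 signal of the 9 WT arrays (x axis), with 1 point per gene tested. The 50 genes called higher are red, the 23 called lower are blue, and the 16 genes named have the largest called differences without overlap between late and early arrays.

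Genes of ER folding and transport were lower in late WT liver. Pdia4, a disulfide isomerase of the ER, Hsp90b1, the ER form of Hsp90, and Sec61a1, the pore through which new proteins enter the ER, fell. They were the 3 called of 26 tested members of a list of unfolded protein response genes, against 0 called higher. The list's median log2 difference was -0.51, beside -0.02 over all genes, and 25 of the 26 members were below 0. The promoters of 3 members are shown because the list was read for the ER stress element, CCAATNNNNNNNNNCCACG on either strand, which binds factors of this response. The windows run from 250 bases before to 50 after the start of the gene (RefSeq, GRCm38.p6, written 5′ to 3′ on the strand of the gene). They are chr10:86705395-86705694 on the minus strand for Hsp90b1, chr2:34771840-34772139 on the plus strand for Hspa5 and chr15:88819396-88819695 on the plus strand for Creld2. Capitals mark the fixed letters of each match, and a match reading CGTGG first lies on the opposite strand.
Hsp90b1: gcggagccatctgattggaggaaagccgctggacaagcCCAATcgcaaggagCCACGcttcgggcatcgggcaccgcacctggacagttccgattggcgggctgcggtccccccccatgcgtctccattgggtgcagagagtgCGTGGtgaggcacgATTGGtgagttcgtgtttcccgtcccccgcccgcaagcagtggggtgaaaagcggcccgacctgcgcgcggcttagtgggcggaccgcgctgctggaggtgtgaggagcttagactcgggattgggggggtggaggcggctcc
Hspa5: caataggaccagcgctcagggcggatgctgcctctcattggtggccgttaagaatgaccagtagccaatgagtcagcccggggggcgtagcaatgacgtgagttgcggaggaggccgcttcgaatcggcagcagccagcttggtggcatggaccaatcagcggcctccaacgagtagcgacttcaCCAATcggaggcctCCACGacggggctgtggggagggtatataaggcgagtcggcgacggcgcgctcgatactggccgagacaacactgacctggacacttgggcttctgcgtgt
Creld2: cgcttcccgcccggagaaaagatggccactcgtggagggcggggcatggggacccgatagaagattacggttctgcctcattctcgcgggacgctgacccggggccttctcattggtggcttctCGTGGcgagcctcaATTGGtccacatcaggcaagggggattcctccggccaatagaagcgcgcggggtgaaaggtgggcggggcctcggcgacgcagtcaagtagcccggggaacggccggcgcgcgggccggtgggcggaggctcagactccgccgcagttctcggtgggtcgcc
Of the 22 members with a promoter in the table, 7 held the element, which is 31.8%, beside 10 of 4269 tested genes (0.234%) and 37 of all 27025 genes with a promoter (0.137%). The 7 were Canx, Creld2, Dnajc3, Ero1b, Hsp90b1, Hspa5 and Pdia6. Of the called members with a window, Hsp90b1 held it and Pdia4 did not, Sec61a1 had none in the table, and a match in letters does not show that a factor binds.

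Pdia4 read 6.26 and 6.40 at 24 h and 6.19 and 6.14 at 48 h, against 8.20 and 7.63 at 6 h and 6.85, 6.84 and 6.84 at 12 h. All 4 late arrays lay below all 5 early ones, and within the early arrays both at 6 h were above all at 12 h. Its difference was -1.03 (SE 0.14, limma adjusted p = 0.000779), or 2.04-fold lower. Hsp90b1 read 8.19, 8.11, 7.52 and 8.16 in the late arrays, against 9.70, 9.25, 8.60, 8.63 and 8.67 in the early ones. It had the same order, late below 12 h below 6 h, with a difference of -0.98 (SE 0.18, limma adjusted p = 0.00769). Sec61a1 read 6.99 to 7.42 over the late arrays, against 7.81, 8.26, 7.82, 7.77 and 7.78 early. Its highest late array lay below its lowest early one, with a difference of -0.71 (SE 0.12, limma adjusted p = 0.00371).

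Hspa5 (BiP), the main ER chaperone and a sensor partner of the response, read 7.35, 7.06, 7.10 and 7.39 late, against 9.42 and 8.85 at 6 h and 7.66, 7.58 and 7.59 at 12 h. The arrays did not overlap, but its difference of -0.997 (SE 0.245) missed the threshold in limma (adjusted p = 0.0522). Creld2, an ER-resident factor induced by ER stress, read 4.36, 3.82, 4.11 and 3.91 late, against 7.55, 6.02, 4.21, 4.51 and 4.39 early. Its late arrays overlapped those at 12 h, and its difference of -1.28 was not called (limma adjusted p = 0.0605). Manf, a secreted ER stress protein, differed by -1.10 (limma adjusted p = 0.0735). Herpud1, which takes part in removal of misfolded ER proteins, differed by -0.22 (limma adjusted p = 0.875), with 8.50, 7.86, 8.06 and 8.45 late against 9.63 and 8.71 at 6 h and 7.95, 8.16 and 7.75 at 12 h. Both 6 h arrays lay above the late ones, and the 12 h arrays overlapped them.

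For the ER list the interval between 6 h and 12 h held much of the difference. The median of 12 h minus 6 h was -0.41 over the 26 members, with 22 below 0, and 2 of them, Pdia4 and Creld2, were called. Late arrays against those at 12 h alone gave a median of -0.33 with 0 members called by limma. Without replicate 1 of both genotypes at 6 h the median was -0.24, with 5 of 24 tested members called lower and 0 higher. In that setting 1209 of all 5186 genes tested were called, 509 of them lower. The list's count was not tested against that share. Median centring gave a median of -0.44 with 1 called.

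Some other genes that fell encode proteins of the ER, the Golgi and their vesicles. Slc35b1, a transporter of the ER membrane, fell by 0.76 on the log2 scale (SE 0.13, limma adjusted p = 0.00397), and its 4 late arrays at 6.83, 6.96, 6.41 and 6.71 lay below the early ones, at 7.25 to 7.80. Copb2, a subunit of the COPI vesicle coat, fell by 0.50 and Sec11c, a subunit of the signal peptidase, fell by 0.32. Golph3l, a Golgi protein, fell by 0.32, Pomgnt1, a Golgi glycosyltransferase, fell by 0.30, and Hdlbp, an RNA-binding protein, fell by 0.47. These genes were picked out after their values were seen, and Sec11c, Golph3l, Pomgnt1 and Hdlbp were called in 13, 14, 9 and 14 of the 29 alternatives. Sar1b, a GTPase of COPII vesicles, rose by 0.66 (SE 0.16, limma adjusted p = 0.0466, called in 11 of the 29). Over all 28 tested coat and translocon subunits, a family also picked afterwards, 3 were called lower (Copb2, Sec11c and the list member Sec61a1) and 1 higher, 7 were above 0 and the median was -0.21.

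Acute phase plasma proteins were the other group that fell. Serpina3n, a serine protease inhibitor, Itih4, a heavy chain of the inter-alpha inhibitor family, Lbp, which binds bacterial lipopolysaccharide, Fgg, the gamma chain of fibrinogen, and Hp (haptoglobin), which binds free hemoglobin, were called lower. They are 5 of 24 tested members of the acute phase list, against 0 called higher, with a median of -0.45 and 20 members below 0. The median was -0.37 as deposited and -0.34 after median centring, with 3 called lower in each. Without WT 6 h replicate 1 there were 9 called lower and 0 higher, where 81 of all 5236 genes tested were lower and 246 higher. Without replicate 1 of both genotypes at 6 h there were 8 lower and 2 higher, where 509 of all 5186 genes were lower and 700 higher.

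Serpina3n read 8.55 and 8.98 at 24 h and 7.69 and 8.06 at 48 h, against 10.06 and 10.52 at 6 h and 10.26, 10.02 and 9.79 at 12 h. The late arrays all lay below the early ones by at least 0.81, and those at 48 h below those at 24 h. The difference was -1.81 (SE 0.21, limma adjusted p = 0.000238), or 3.51-fold lower. Lrg1, a leucine-rich glycoprotein of plasma that is not on the list, read 8.75, 9.31, 8.19 and 8.31 late, against 10.26, 10.06, 10.35, 10.33 and 10.21 early. It fell by 1.60 (SE 0.24, limma adjusted p = 0.00235), or 3.03-fold, and its early arrays lay within 0.29 of each other. Serpina10, the inhibitor of activated factor X that works with protein Z, read 7.57, 7.74, 7.29 and 7.49 late, against 8.81, 8.66, 8.54, 8.64 and 8.42 early. It fell by 1.09 (SE 0.10, limma adjusted p = 3.19e-05).

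Itih4 read 8.72, 8.61, 8.27 and 8.42 in the late arrays, against 9.86, 9.53, 9.81, 9.56 and 9.25 in the early arrays. The groups did not overlap, and Itih4 fell by 1.09 (SE 0.14, limma adjusted p = 0.000597). Its promoter, at chr14:30886226-30886525 on the plus strand (RefSeq, GRCm38.p6), is shown because Itih4, alone among the called members with a window (Serpina3n, Itih4 and Fgg), held a match to the spaced palindrome TTCNNNGAA, the letters that STAT factors bind, in capitals.
Itih4: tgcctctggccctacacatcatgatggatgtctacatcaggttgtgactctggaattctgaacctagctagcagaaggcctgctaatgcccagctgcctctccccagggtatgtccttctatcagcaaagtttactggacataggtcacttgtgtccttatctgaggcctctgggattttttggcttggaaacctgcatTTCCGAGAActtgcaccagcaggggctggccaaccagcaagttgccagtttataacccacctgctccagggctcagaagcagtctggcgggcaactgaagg
Of the 21 tested members with a promoter in the table, 5 held this motif (23.8%), beside 348 of the 4269 tested genes (8.15%) and 2582 of the 27025 genes with a promoter (9.55%). The motif reads the same on both strands.

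Serum amyloid A and the metallothioneins had their lowest values at 48 h. Saa2, an acute phase apolipoprotein, read 11.14 and 10.77 at 24 h and 7.61 and 7.62 at 48 h, against 11.57 and 10.77 at 6 h and 11.42, 10.94 and 11.20 at 12 h. Its 48 h arrays lay below all others while its 24 h arrays overlapped the early ones, and its difference of -1.90 (SE 0.73) was not called (limma adjusted p = 0.305). Mt1, a metal-binding metallothionein, read 9.45 and 10.06 at 24 h and 7.96 in both 48 h arrays, against 11.10, 11.10, 10.67, 10.77 and 9.54 early, a difference of -1.78 (limma adjusted p = 0.0633). Mt2 differed by -1.82 (limma adjusted p = 0.0971), with 9.07 and 9.17 at 24 h and 6.78 and 7.06 at 48 h, against 9.23 to 10.22 early, and its groups did not overlap. Near-identical copies such as Saa1, and Mt1 and Mt2 themselves, may share probes, and their signals are uncertain for that reason.

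**Figure D2:**
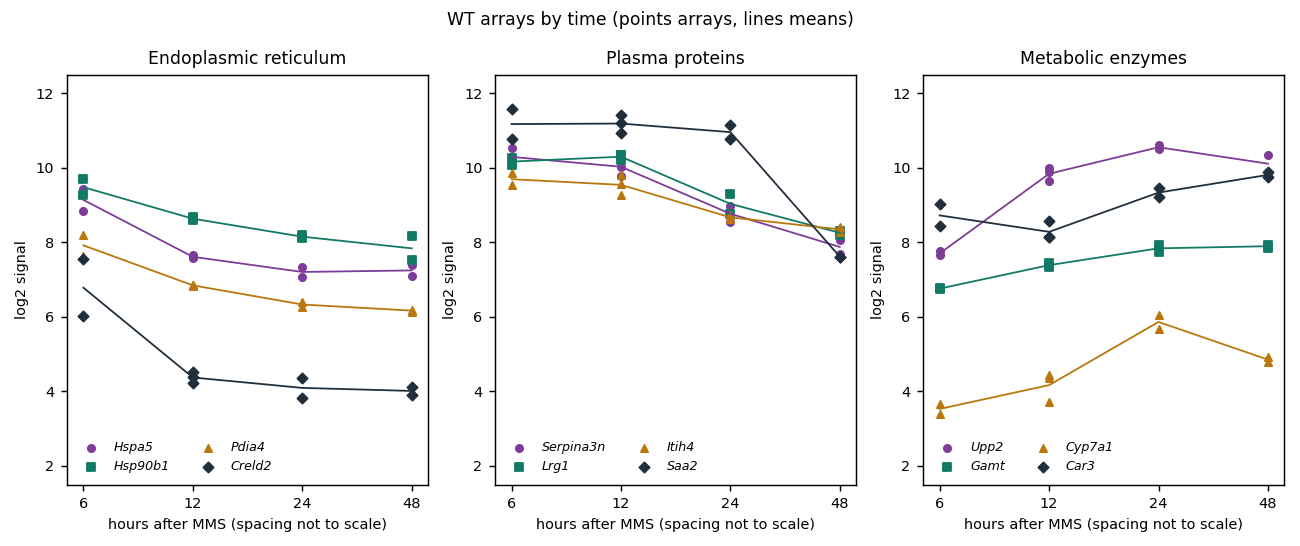
Log2 signal of single WT arrays (points) and their means (lines) at 6, 12, 24 and 48 h after MMS for ER genes, plasma proteins and metabolic enzymes, with time points evenly spaced. Hspa5 and Creld2 were high at 6 h only, Serpina3n was lower at 24 h and again at 48 h, and Saa2 was low at 48 h only.

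Other single genes fell. Ctse, an aspartic protease, read 6.22, 6.58, 6.01 and 6.48 late, against 7.70, 7.09, 7.24, 7.52 and 7.58 early, a difference of -1.10 (SE 0.19, limma adjusted p = 0.00444), with -1.15 in another bright probe set and 0.06 in a dim one below the array median on all 9 arrays. Nnt, the mitochondrial transhydrogenase that makes NADPH, read 4.32, 4.37, 4.12 and 4.51 late, against 5.83, 4.64, 5.42, 5.67 and 5.35 early. Both genes were without overlap, Nnt by a gap of 0.12 and with a difference of -1.05 (SE 0.18, limma adjusted p = 0.00444). Levels of both genes also varied without MMS, since untreated Aag arrays, scaled with all 28, ran over 5.84 to 8.24 for Ctse and 3.97 to 5.34 for Nnt. The labels name no strain, and whether something other than time sets these levels was not tested. Ldha, which interconverts pyruvate and lactate, fell by 0.75 (SE 0.10, limma adjusted p = 0.000779), with 8.89 to 9.25 late against 9.69 to 9.96 early. Atf5, a stress-related transcription factor, fell by 0.63 (SE 0.15, limma adjusted p = 0.0439) and was the only 1 of 18 tested members of the ATF4 list to be called, with a list median of -0.18. Atf5 was called in 9 of the 29 alternatives, and not as deposited, after median centring or without any 1 of the 4 late arrays.

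**Figure D3:**
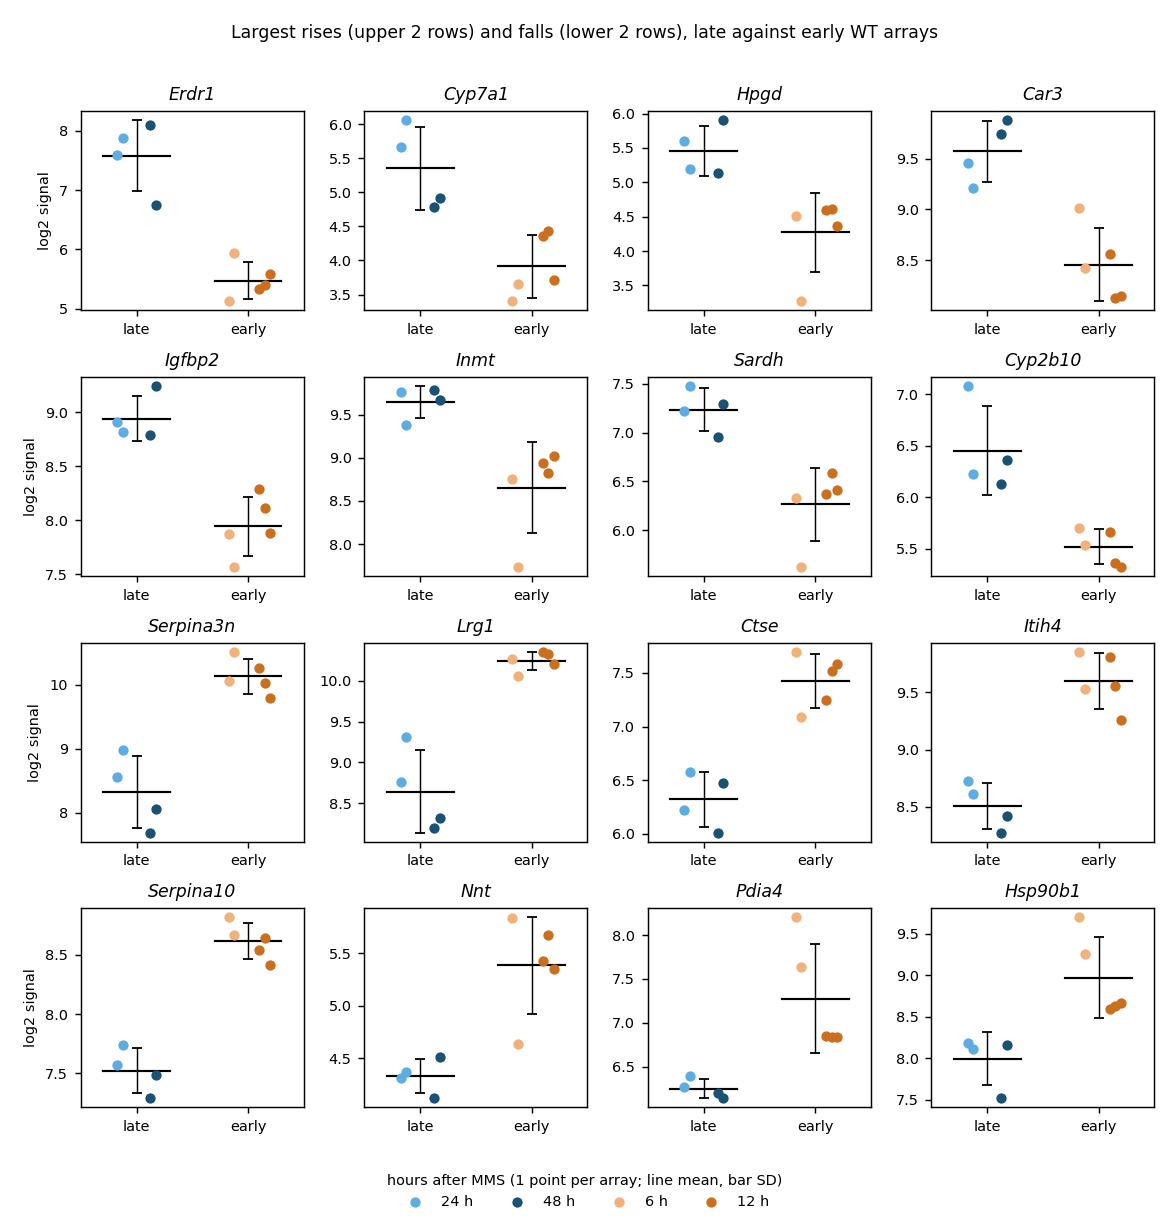
Log2 signal of the 9 WT arrays for the 8 largest rises (upper 2 rows) and the 8 largest falls (lower 2 rows) among called genes whose late and early arrays do not overlap. Late arrays are left of early ones, points are arrays coloured by time, lines are means and bars are SDs (n = 4 late, 5 early). In Pdia4 and Hsp90b1 the arrays at 6 h lie above those at 12 h, and in Serpina3n and Lrg1 those at 48 h lie below those at 24 h.

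Erdr1, a gene named for erythroid differentiation, had the largest difference among the genes that rose. Erdr1 read 7.60, 7.88, 8.11 and 6.74 late, against 5.12, 5.93, 5.33, 5.39 and 5.59 early. The groups did not overlap, with a difference of 2.11 (SE 0.34, limma adjusted p = 0.00331), or 4.31-fold. This rests on 1 probe set, of a kind that can match several transcripts. The other Erdr1 probe set, also above the array median on all 9 arrays, averaged 5.92 late and 5.91 early, and the mean of both gave 1.06.

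Single enzymes of bile acid, drug and methyl group metabolism rose, few of those tested. Cyp7a1, which starts the classic route from cholesterol to bile acids, read 5.66 and 6.06 at 24 h and 4.78 and 4.92 at 48 h, against 3.40, 3.66, 4.35, 4.43 and 3.72 early. It was highest at 24 h and did not overlap, with a difference of 1.44 (SE 0.25, limma adjusted p = 0.00503), and was 1 of 15 tested bile acid genes called (median 0.22). Without both 6 h arrays, and in late against 12 h arrays, Cyp7a1 was not called. Cyp2b10, a drug-inducible P450, read 7.08, 6.22, 6.13 and 6.36 late, against 5.70, 5.54, 5.67, 5.36 and 5.32 early, and rose by 0.93 (SE 0.20, limma adjusted p = 0.0249). Cyp2b10 was called in 17 of the 29 alternatives, and not without WT 24 h replicate 1, its highest array. Cyp1a2, a major hepatic P450, rose by 0.68 (SE 0.11, limma adjusted p = 0.00285), with 9.20 to 9.63 late and 8.55 to 8.79 early. They were the 2 called of 26 tested P450 and flavin monooxygenase genes, whose median was 0.13.

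Inmt, a methyltransferase of indole amines, read 9.77, 9.38, 9.78 and 9.66 late, against 8.75, 7.73, 8.93, 8.82 and 9.03 early, a rise of 0.99 (SE 0.16, limma adjusted p = 0.00371). Sardh, which oxidizes sarcosine in mitochondria, read 7.22, 7.48, 6.95 and 7.29 late, against 6.33, 5.62, 6.37, 6.59 and 6.41 early. It rose by 0.97 (SE 0.15, limma adjusted p = 0.00285), and in both genes the lowest late array lay above the highest early one. Gamt, the methyltransferase that makes creatine, read 7.92, 7.75, 7.85 and 7.94 late, against 6.77 and 6.75 at 6 h and 7.34, 7.44 and 7.38 at 12 h. All late arrays lay above those at 12 h, and those above both at 6 h, and Gamt rose with a difference of 0.73 (SE 0.08, limma adjusted p = 0.000122).

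Car3, a carbonic anhydrase abundant in liver and fat, read 9.45, 9.21, 9.74 and 9.88 late, against 9.02, 8.42, 8.56, 8.13 and 8.15 early. It rose by 1.11 (SE 0.19, limma adjusted p = 0.00381) without overlap, and the other 2 tested adipose markers, Lep and Retn, differed by -0.25 and -0.06. Igfbp2, a carrier of insulin-like growth factors in plasma, read 8.91, 8.81, 8.79 and 9.25 late, against 7.87, 7.57, 8.29, 8.11 and 7.88 early, a rise of 1.00 (SE 0.14, limma adjusted p = 0.00109). Hpgd, which inactivates prostaglandins, rose by 1.18 (SE 0.25, limma adjusted p = 0.0235), with 5.13 to 5.90 late and 3.27 to 4.61 early. Hpgd was called in 19 of the 29 alternatives, and not after median centring or in late against 12 h arrays. In each of these 3 genes all late arrays lay above all early ones.

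Upp2, a uridine phosphorylase of liver, had the smallest p of the rises but overlapping groups. It read 10.61 and 10.49 at 24 h and 9.87 and 10.35 at 48 h, against 7.65 and 7.75 at 6 h and 9.88, 10.01 and 9.63 at 12 h. The difference was 1.35 (SE 0.13, limma adjusted p = 4.01e-05), and 12 h minus 6 h was 2.14 (SE 0.18, limma adjusted p = 8.47e-06). Upp2 was called in 26 of the 29 alternatives. It was not called without both 6 h arrays, in late against 12 h arrays, or with 1 mean for late and 1 for early arrays.

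Glutathione transferases, which join glutathione to electrophiles, included Gsta2 and Gstm6, the 2 called of 28 tested NRF2 targets (list median 0.07). Gsta2 read 7.48, 6.94, 7.99 and 7.66 late, against 6.68, 6.47, 6.87, 6.63 and 6.74 early, a rise of 0.84 (SE 0.14, limma adjusted p = 0.00397) with a gap of 0.07 between the groups. Gstm6 rose by 0.53 (SE 0.12, limma adjusted p = 0.0422), with 5.88 to 6.35 late and 5.43 to 5.67 early. Both belong to families of near-identical copies that probes may not separate, and Gstm6 was called in 13 of the 29 alternatives.

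Fatty acid oxidation and respiratory chain genes were mostly above 0, with few called. Acaa1b, a peroxisomal thiolase, rose by 0.85 (SE 0.16, limma adjusted p = 0.00954), with 9.84 to 10.35 late and 8.83 to 9.50 early, and Etfb, which passes electrons from fatty acid oxidation, rose by 0.33 (SE 0.07, limma adjusted p = 0.0249). They were the 2 called of 31 tested members of the PPARalpha list, whose median was 0.32 with 28 above 0. Its rate-limiting member Cpt1a differed by 0.05 (SE 0.15, limma adjusted p = 0.958), and Cyp4a14, a fatty acid hydroxylase, by 1.29 (SE 0.51, limma adjusted p = 0.323). Of 53 tested respiratory chain genes, Sdhb of complex II (0.43, SE 0.10, limma adjusted p = 0.0438) and Atp5o of ATP synthase (0.35, SE 0.08, limma adjusted p = 0.0466) rose, the list median was 0.28 and 46 were above 0. Etfb, Sdhb and Atp5o were called in 13, 13 and 9 of the 29 alternatives. The other Etfb probe set, also above the array median on all 9 arrays, differed by -0.05. The mean of both Etfb probe sets gave 0.14 and was not called. Without WT 6 h replicate 1 there were 19 respiratory chain genes called higher and 0 lower, and 8 of the PPARalpha list. In that setting 246 of all 5236 genes tested were called higher and 81 lower. As deposited, 0 respiratory chain genes were called by limma, where the list median was 0.39.

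**Figure D4:**
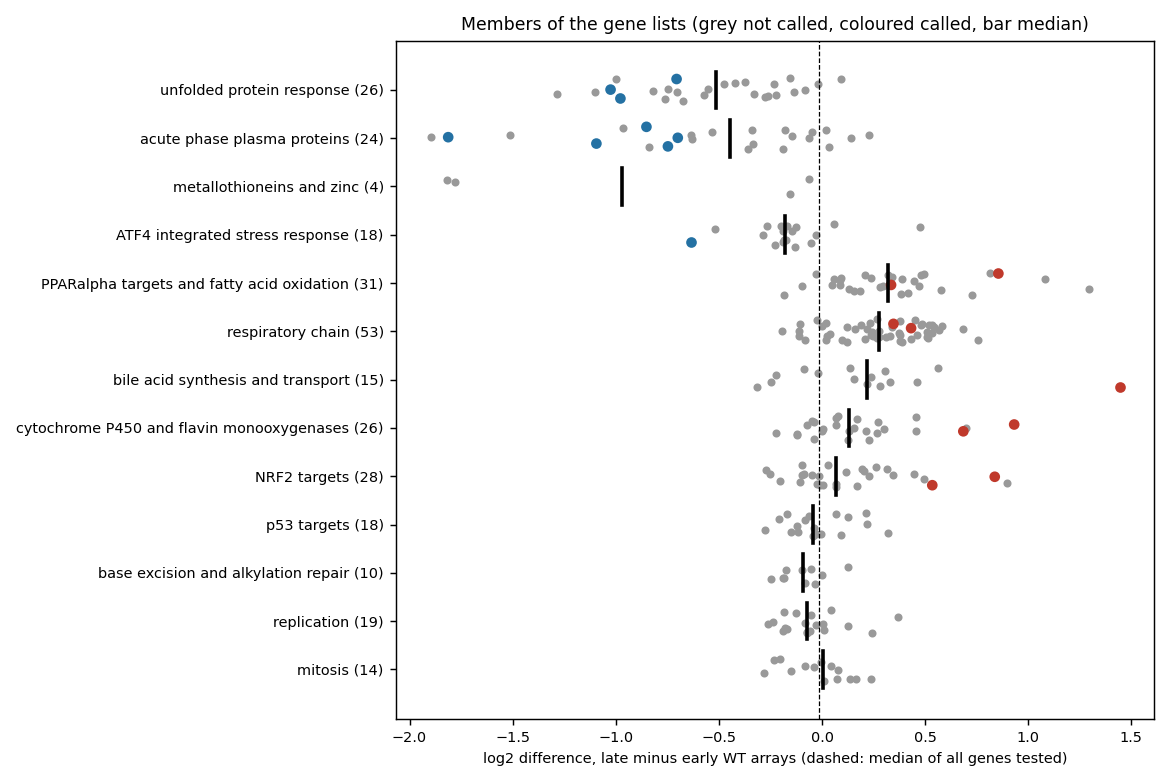
Log2 difference, late minus early WT arrays, of each tested member of 13 gene lists (number tested in brackets), with called members coloured, medians as black bars and the median of all genes as a dashed line. The ER list and the acute phase list lie left of the line, the PPARalpha and respiratory chain lists right of it, and the lists of p53 targets, repair, replication and mitosis are centred near it.

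Lists on DNA damage and growth showed no called member in limma. Of 18 tested p53 targets, 10 base excision and alkylation repair genes, 19 replication genes and 14 mitosis genes, 0 were called in either direction, with 0, 1, 2 and 1 at an unadjusted p under 0.05 and medians of -0.04, -0.09, -0.07 and 0.00. Over all genes tested 1.37% were called, a share at which lists this short would hold few or none. Unadjusted, 579 of all 5318 genes had a p under 0.05 in limma. Cdkn1a, the p53 target that stops the cell cycle, read 6.17, 6.28, 6.36 and 6.09 late, against 6.10, 6.54, 6.41, 6.22 and 6.27 early. The groups overlapped, with a difference of -0.08 (SE 0.11, limma adjusted p = 0.89). Mdm2, the p53 ubiquitin ligase, differed by less than 0.01 in size (SE 0.16, limma adjusted p = 0.993). Ccng1, Mgmt, Polb and Per2 were too dim to be tested. Igfbp1, an insulin-regulated binding protein, differed by 0.40 (SE 0.56, limma adjusted p = 0.891), Nr1d2, a clock repressor, by 0.29 (SE 0.32, limma adjusted p = 0.858), and neither was called. Usp2, a clock-controlled deubiquitinase, was the 1 called of 14 tested clock genes and rose by 0.55 (SE 0.13, limma adjusted p = 0.046), with 6.44 to 7.02 late overlapping 5.68 to 6.64 early. Usp2 was called in 7 of the 29 alternatives, and among the 9 WT arrays left out singly it stayed called only without 12 h replicate 2.

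Markers of cells other than hepatocytes were also read. Of 14 tested Kupffer cell and macrophage markers, 7 neutrophil, 4 T and NK cell, 5 B cell, 6 endothelial and 9 stellate cell and matrix markers, 0 were called, with 4 macrophage markers and 1 endothelial marker at an unadjusted p under 0.05 in limma. At the share called over all genes, 1.37%, marker lists this short would also hold few or none. The mean log2 signal of the 18 Kupffer cell and macrophage markers on the array, 11 of them above the array median, was 4.60 to 4.92 late and 4.41 to 4.80 early. H2-Aa, an MHC class II chain of antigen-presenting cells, was the 1 called of 8 tested class II genes and rose by 0.54 (SE 0.11, limma adjusted p = 0.0153), with 5.69, 5.73, 6.18 and 6.26 late against 5.20 to 5.56 early. Whether the macrophage marker level bears on H2-Aa was not tested.

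Within the late arrays, 48 h minus 24 h gave 2 called genes, which is 0.0376% of those tested, both lower. Fkbp5, a glucocorticoid-induced cochaperone, read 5.31 and 5.56 at 48 h, against 7.02 and 6.69 at 24 h, a difference of -1.42 (SE 0.21, limma adjusted p = 0.0133). Susd6, a membrane protein, read 5.36 and 5.46 at 48 h, against 6.39 and 6.01 at 24 h, a difference of -0.79 (SE 0.12, limma adjusted p = 0.0133). Late minus early they were at -0.12 (limma adjusted p = 0.871) and 0.27 (limma adjusted p = 0.109), not called. Within the early arrays, 12 h minus 6 h gave 13 called genes (0.244%), 8 higher and 5 lower. Beside Upp2, Pdia4 and Creld2, they included Tcea3, a transcription elongation factor, higher by 0.72, Ngef, a nucleotide exchange factor, higher by 0.91, and Blzf1, a Golgi protein, lower by 0.64 at 12 h (limma adjusted p = 0.00532, 0.0185 and 0.0185).

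The same late minus early contrast in Aag null liver gave 54 called genes (1.02%), 24 higher (0.451%) and 30 lower (0.564%). Of the 73 genes called in WT, 69 had the same sign in Aag arrays, as did 43.5% of all genes tested. In Aag 25 of them were called, all with the same sign, which is 34.2% of the WT calls and 46.3% of the Aag calls. The genes that rose in WT had a median of 0.57 in WT and 0.26 in Aag, and those that fell had -0.75 in WT and -0.34 in Aag. A smaller size in the arrays that did not choose the genes carries no test, since the genes were chosen on the WT arrays.

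Only Serpina10 differed between the genotypes in the test of the difference itself, 1 gene of those tested (0.0188%). In WT it fell by 1.09, with the values above, while in Aag it read 7.39 to 7.76 late and 7.53 to 7.92 early, a difference of -0.09 (limma adjusted p = 0.713). The WT difference minus the Aag difference was -1.01 (SE 0.13, limma adjusted p = 0.00492). This call was lost with the values as deposited (adjusted p = 0.288), after median centring (0.374) and with array weights (0.574). Itih4 had a similar size, -1.02 (SE 0.18, limma adjusted p = 0.0686), with 7.84 to 8.62 late and 8.17 to 8.48 early in Aag, and was not called. Cyp7a1 and Serpina3n had larger differences, 1.31 (SE 0.33) and -1.18 (SE 0.28), and neither was called (limma adjusted p = 0.386 for each). In Aag, Cyp7a1 differed by 0.13 (limma adjusted p = 0.801) and Serpina3n by -0.63 (limma adjusted p = 0.137).

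The ER list had a median of -0.49 in Aag with 4 called lower, beside -0.51 in WT, and the acute phase list had -0.17 in Aag with 0 called, beside -0.45 in WT. Hspa5 was called in Aag (-1.12, limma adjusted p = 0.0185), with 6.09 to 7.71 late and 7.50 to 9.06 early. Ctse fell by 1.78 in Aag (limma adjusted p = 3.75e-05), with 5.72 to 6.38 late and 7.42 to 8.15 early, so its groups were apart in both genotypes. Nnt fell by 1.05 in Aag (limma adjusted p = 0.00425), with 4.17 to 4.45 late and 5.07 to 5.73 early. For Ctse and Nnt the difference between the genotypes was not called (limma adjusted p = 0.667 and 0.993).

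**Figure D5:**
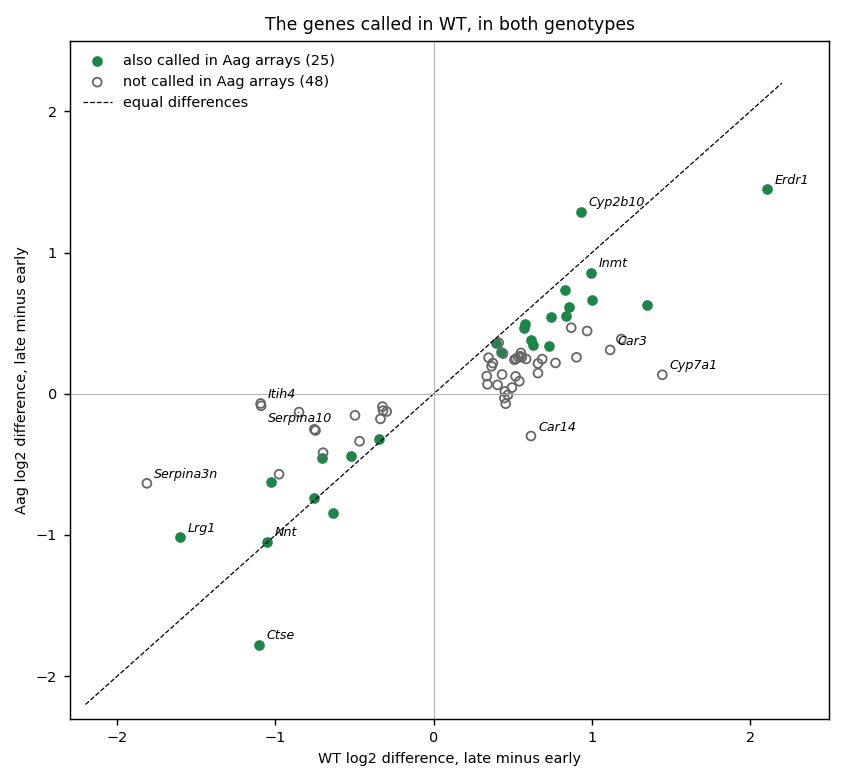
Late minus early log2 difference in WT (x axis) and in Aag null liver (y axis) of the 73 genes called in WT, filled where also called in Aag (25 genes). Itih4 and Serpina10 lie near 0 on the Aag axis and below -1 on the WT axis, and Nnt lies on the line of equal differences.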

How the data were processed

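The deposited table holds 1 log2 signal per probe set and array, which the authors had already summarised from the probes. The unit was taken from the values (0.689 to 13.16). Software, summary method and scaling: not given in the sources used here. Biotinylated cRNA was hybridized, per the labels' protocols. From 12488 probe sets per array 66 controls were left out. The 21 MMS-treated arrays were quantile normalized, since their medians spanned 0.131, above the limit of 0.1. Symbols came from the platform annotation (10855 probe sets with 1 symbol, 396 with several, 1237 with none), and 10839 were found in the reference by gene ID. The brightest probe set stood for each of 8251 genes, and tests covered the 5318 that exceeded the median of their array on 2 arrays or more.

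A limma 3.58.1 model in R 4.3.3 fitted 1 mean for each of 8 genotype and time groups (13 residual degrees of freedom, mean-variance trend), with Benjamini-Hochberg adjustment over all genes tested and a threshold of 0.05. The late mean of 4 arrays and the early mean of 5 weight each array equally. In simulated data with 200 changed genes the pipeline was tested before use, for the sign and mean size of its estimates. The simulated spread was independent between genes and arrays, so effects shared by the genes of an array were not covered. The number of arrays limits the precision.

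The comparison and the 30 gene lists were chosen with earlier results of these data known. Genes named are the 8 largest rises and 8 largest falls without overlap, up to 4 called members of each list (or 2 with the smallest p where none was called), 16 named whatever their values, and called genes of the other contrasts, 6 for the difference between genotypes and 3 in each direction for pairs of times. Other called genes given were chosen after their values were seen. Of 14 called genes with more than 1 probe set, 4 (Aqp1, Cisd1, Ctse and Etfb) had probe sets of opposite sign. Replicates were treated as unpaired. Of 12 pairs of WT arrays with the same replicate number at different times, 4 had deviations that correlated above 0.1 (range -0.743 to 0.602). Where a time has 2 arrays, their deviations mirror each other, so these pairs are not independent and their count cannot settle pairing. Alternatives covered scaling, filters, probe set means, the replicate block, array weights, the arrays and times entering, covariates and each array left out. Figures used Python 3.11.15 and matplotlib 3.10.9.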

Additional observations from a re-analysis of the deposited data

Results flagged for a closer look

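Of 86 named genes, 11 held a WT array whose distance to the nearest other array exceeded Dixon's critical value within its group, over 172 checks of 1 gene in 1 group. Chance flags about 1 in 20 groups. Of the 11, 6 concerned WT 6 h replicate 2, 2 WT 6 h replicate 1, 2 WT 48 h replicate 1 and 1 WT 12 h replicate 3.

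Hsp90b1 read 7.52 in WT 48 h replicate 1, below 8.11 to 8.19 in the other late arrays, and Ube2c, which marks proteins for destruction in mitosis, read 3.78 there, below 4.31 to 4.39. In WT 6 h replicate 2, Hpgd read 3.27 (other early arrays 4.37 to 4.61), Inmt 7.73 (8.75 to 9.03), Sardh 5.62 (6.33 to 6.59), Msmo1, an enzyme of cholesterol synthesis, 4.25 (5.23 to 5.59), Sec61a1 8.26 (7.77 to 7.82) and Junb, an immediate early factor, 6.34 (5.47 to 5.65). In WT 6 h replicate 1, Parp2, a DNA break sensor, read 4.84 (other early arrays 3.88 to 4.13) and Tk1, which makes thymidine nucleotides, read 6.06 (6.86 to 7.02). Mt1 read 9.54 in WT 12 h replicate 3, below 10.67 to 11.10 in the other early arrays.

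Serpina10 differed between the genotypes in the late minus early contrast, with -1.01 for WT minus Aag (SE 0.13, limma adjusted p = 0.00492).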

How the results depend on the processing

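Beside the 73 genes called in WT late minus early, the values as deposited gave 41, median centring 31, array weights 5 (their estimation stopped before it converged), the 9 WT arrays alone 20, all 28 arrays 44 and the hybridization control covariate 339. Among times, 24 h minus early gave 19, 48 h minus early 91 (50 higher, 41 lower), late minus 6 h gave 120 and late minus 12 h gave 23. Leaving out 1 WT array gave 41 to 327. Leaving out replicate 1 of both genotypes at 6 h, chosen after seeing the data, gave 1209. The replicate block, for numbers not known to pair the samples, gave 49, and 45 of the 73 were kept. With 1 mean for late and 1 for early arrays of each genotype, differences between times entered the spread. That setting gave 52, and 47 of the 73 were kept. All 73 genes kept their sign under the 29 alternatives, and 2, Gamt and Serpina10, were called in each. Of 2117 gene values under alternatives 1421 stayed called. For Aag late minus early (54 called) the counts were 14 as deposited, 13 after median centring, 31 without the filter, 27 with the replicate block, 20 with all 28 arrays, 49 with probe set means and 66 (30 higher, 36 lower) with array weights.

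For the difference between genotypes (1 called), limma gave 0 as deposited, after median centring and with array weights, with 360, 384 and 91 genes at an unadjusted p under 0.05, and 2 with the replicate block, Serpina10 and Itih4. For 48 h minus 24 h (2 called), limma gave 0 after median centring, with the replicate block and with array weights, with 366, 312 and 295 genes at an unadjusted p under 0.05, and 1 with all 28 arrays. For 12 h minus 6 h (13 called, 8 higher), the count was 6 as deposited and 6 after median centring (5 higher and 1 lower in each), 2 with the replicate block, 6 with all 28 arrays and, in limma, 0 with array weights, where 18 genes had an unadjusted p under 0.05. The causes were not tested. No list median of over 0.2 in size turned its sign.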

Other observations

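Glutathione transferases, a family picked after its values were seen, were mostly above 0 in late WT liver. Of 14 tested, 11 were above 0 and 4 rose (Gsta2, Gstm6, Gsto1 and Gstt2), with 0 lower, a median of 0.47 and a range of -0.20 to 0.84, beside an all-gene median of -0.02. Gstt2, a theta-class transferase, read 7.78, 7.74, 7.69 and 7.90 late, against 7.02, 6.41, 7.20, 7.26 and 6.86 early, without overlap, and was called in 11 of 29 alternatives. The family's median in Aag was 0.19.

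Untreated WT arrays belong to no comparison here, since their hybridization controls, at 10.87 to 11.65, lay above those of all treated arrays. Their 3′ minus 5′ signal of Gapdh was also higher, at 0.63 to 0.92 against -0.37 to 0.21 on the WT treated arrays. Both differences limit the levels that follow. With all 28 arrays scaled together, Serpina3n averaged 8.34 late, 10.15 early and 8.21 in untreated WT liver. Itih4 ranged over 8.29 to 8.75 late, 9.29 to 9.88 early and 8.16 to 8.66 untreated, and Serpina10 7.29 to 7.75, 8.44 to 8.83 and 7.30 to 7.58 in the same order. For these 2 genes the late and untreated ranges overlapped, as they did for Serpina3n, Lbp, Pdia4, Sec61a1 and Mt2. For Fgg, Hsp90b1, Hp, Mt1, Hspa5, Nnt and Atf5 they did not overlap. These genes are a pick, and the share of all genes tested whose late and untreated ranges overlap was not computed. The overlaps therefore do not show a return to untreated levels. Hspa5 read 7.05 to 7.39 late and 7.40 to 7.96 untreated. Nnt read 4.10 to 4.49 late and 4.95 to 5.25 untreated, and Atf5 4.88 to 5.19 late and 6.45 to 6.66 untreated. Fgg read 7.96 to 8.73 late, 8.92 to 9.62 early and 8.89 to 9.30 untreated. Hsp90b1 read 7.52 to 8.20 late, 8.63 to 9.72 early and 8.33 to 8.97 untreated. Hp read 10.71 to 11.26 late and 10.40 to 10.61 untreated, and Mt1 7.97 to 10.08 late and 5.95 to 6.56 untreated. Ctse read 5.77 to 6.60 late, 7.19 to 7.57 early and 7.52 to 8.25 untreated, and Erdr1 read 6.73 to 8.12 late, 5.10 to 5.91 early and 3.48 to 4.35 untreated. Untreated Aag arrays ran over 5.84 to 8.24 for Ctse and 4.76 to 8.002 for Erdr1, overlapping both the late and the early WT ranges.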
